A study of Rattus norvegicus with 40 samples.

Results

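Purinergic receptors are the membrane proteins through which cells sense extracellular nucleotides, and 10 of their genes were followed here in dorsal root ganglia (DRGs) of rats with a ligated spinal nerve: *P2rx2*, *P2rx3*, *P2rx4*, *P2rx5*, *P2rx6*, *P2rx7*, *P2ry1*, *P2ry2*, *P2ry12* and *P2ry14*. A probeset was taken as a member when the platform annotation gave it exactly 1 of these symbols. All 10 genes had at least 1 such probeset, out of 14217 genes named on the array. They had 15 probesets in all, and 6 of the genes had 1 probeset each. Where a gene had several, the one with the highest mean log2 signal over the 40 arrays stands for it and the others are given beside it for the main side differences.

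The animals were male Sprague-Dawley rats of 2 cohorts with 5 rats each. In the SNL cohort (rats 4, 8, 9, 18 and 48) the left L5 spinal nerve was tightly tied distal to its DRG, and in the sham cohort (rats 1, 14, 17, 22 and 23) the same operation was done without the ligature. At 4 weeks after surgery the L4 and L5 DRGs of both sides were taken from each rat, so that there were 8 groups of 5 DRGs, and the RNA of each DRG was put on 1 Affymetrix Rat230_2 array. The ipsilateral L5 DRG of an SNL rat thus holds neurons whose axons were tied, the ipsilateral L4 DRG holds neurons whose axons run beside them untied, and the contralateral DRGs of the same rats are the comparison. A whole DRG also holds satellite glia, Schwann cells, macrophages, vessels and connective tissue.

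P2X receptors are ATP-gated cation channels built of 3 subunits, and P2Y receptors are G protein-coupled receptors for ATP, ADP, UTP, UDP or UDP-glucose. P2X3 is the subunit for which sensory neurons are best known: it marks nociceptors, above all the nonpeptidergic ones, and forms channels alone or together with P2X2. P2X4, P2X7 and P2Y12 are known mainly from microglia, macrophages and glial cells, where they have been studied as players in neuropathic pain. ATP that leaves a damaged or active cell is cut to ADP, AMP and adenosine by ectonucleotidases, which end its action on P2X receptors and feed the P2Y and adenosine receptors.

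Signals are linear MAS5 values in arbitrary units, with array medians between 28.6 and 55.6. They compare 1 probeset between arrays and not 1 gene with another. *P2rx3* had signals of 517 to 1329 and stood far above these medians, and the brightest probesets of the other 9 genes had signals between 0.411 and 82.8. Side differences are given as log2 differences, ipsilateral minus contralateral, of log2(signal + 16), which understate the change of dim probesets. A difference is called where the Benjamini-Hochberg adjusted p from limma over all 31042 probesets is under 0.05.

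A pair of features of the arrays touches several of the results. First, 6 skeletal muscle markers (*Acta1*, *Ckm*, *Tnnt3*, *Myh4*, *Tnni2* and *Mb*) had summed signals of 3384 to 3899 in contralateral L5 DRGs of SNL rats, against 132 to 148 in the ipsilateral ones and at most 312 in each of the other groups. All 6 were called lower in SNL L5. Second, GAPDH was measured near both ends of its transcript, and the log2 ratio of its 3′ over its 5′ signal, which goes up as RNA is degraded, was 1.45 to 1.71 in ipsilateral and 0.89 to 1.10 in contralateral L5 DRGs of SNL rats, and 2.14 to 2.47 against 1.31 to 1.45 at L4. In sham rats it was 1.59 to 1.79 against 1.18 to 1.49 at L4 and 1.01 to 1.25 against 0.90 to 1.13 at L5. The arrays of SNL L5 belong to another array-name series than the other 30, so levels of SNL L5 and of the other groups are also levels of different series, and each side difference lies within 1 series.

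Receptor genes were called in both directions in SNL L5. Of the 10 genes, 4 were called higher and 4 lower in the ipsilateral L5 DRG of SNL rats. Over all genes 35.4% were called higher and 19.02% lower in SNL L5, so the higher count was near the share of all genes. Among the higher genes, *P2rx4* was also called higher in sham L5 (log2 difference 0.39, against 0.31 in SNL L5). In the L4 DRG, 2 receptor genes were lower (10.02% of all genes) and 0 higher (10.97% of all genes), with 0 higher also at an unadjusted p under 0.05. The methods' t-test after Benjamini-Hochberg adjustment called 1 of the 10 at SNL L4.

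Sham rats had side differences too. At sham L4, 2 of the 10 were higher, where 12.8% of all genes were, and 1 was lower, where 13.7% were. At sham L5, 4 were higher against 21.4% of all genes, and 2 were lower against 28.2%. The median log2 difference of the 10 genes was 0.00 in SNL L4 and 0.18 in SNL L5, and in sham rats 0.17 at L4 and 0.05 at L5, and that of all genes was 0.07, 0.13, 0.01 and -0.03. Scaling all arrays to equal medians moved the median of all genes to -0.17 in sham L4, to -0.28 in sham L5, to -0.03 in SNL L4 and to -0.0019 in SNL L5, and the counts of higher and lower receptor genes at sham L5 then became 2 and 4. After quantile normalization they were 2 and 5.

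**Figure D1:**
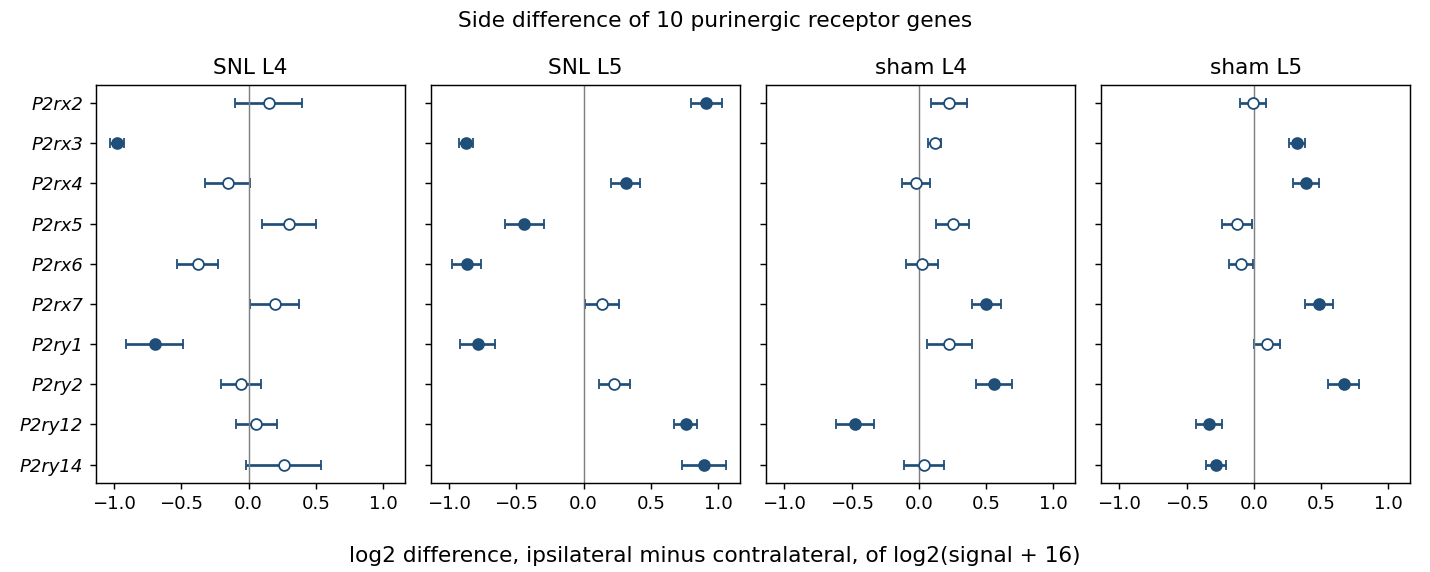
Log2 difference between the sides (ipsilateral minus contralateral, of log2(signal + 16), horizontal axis) of the 10 receptor genes in the 4 comparisons, with points for the limma estimate, bars for its SE and filled points for an adjusted p under 0.05 (5 arrays a side). *P2rx3* lies at -0.98 in SNL L4 and -0.88 in SNL L5, and *P2rx2*, *P2ry12* and *P2ry14* lie above 0.7 in SNL L5.

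The brightest probeset of *P2rx3*, the sensory neuron channel subunit, fell in both the tied and the untied ganglion of SNL rats, while a second, dimmer probeset fell in the tied ganglion alone of these 2. In SNL L4 the contralateral signals of rats 4, 8, 9, 18 and 48 were 1157, 1071, 1132, 1019 and 1107, and the ipsilateral ones were 539, 567, 550, 543 and 543. No ipsilateral DRG came near a contralateral one. The contralateral mean was 2.0 times the ipsilateral mean (log2 difference -0.98, SE 0.05, adjusted p = 1.1e-09 from limma).

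At the ligated level the contralateral signals of *P2rx3* were 1074, 979, 1069, 1089 and 1029, and the ipsilateral ones 517, 572, 570, 581 and 580. The sides again lay apart in all 5 rats. The ratio of contralateral to ipsilateral means was 1.86 (log2 difference -0.88, SE 0.05, adjusted p = 2.3e-10 from limma). For this probeset the difference between the L5 and the L4 effect was not called.

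A second *P2rx3* probeset gave the fall at L5 but not at L4. Its signals, which are much dimmer, were compared in the same rats. At L5 they were 83.2, 72.1, 74.0, 97.2 and 80.5 contralaterally and 53.3, 55.8, 61.4, 52.9 and 50.7 ipsilaterally, without overlap (log2 difference -0.46, SE 0.09). At L4 they were 68.4, 57.8, 65.6, 80.3 and 92.6 contralaterally and 64.7, 89.3, 76.0, 70.9 and 87.9 ipsilaterally, with full overlap (log2 difference 0.08, SE 0.13). The L5 effect of this probeset was lower than its L4 effect by 0.54 (SE 0.15, adjusted p = 0.013 from limma). The 2 probesets therefore disagree on *P2rx3* at L4, where the GAPDH ratio differed most between the sides. The part of RNA integrity in this was not tested.

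No fall of *P2rx3* was called in sham rats. At sham L5 the contralateral signals of rats 1, 14, 17, 22 and 23 were 972, 974, 948, 1004 and 841, and the ipsilateral ones 1168, 1164, 1122, 1329 and 1148. The sides did not overlap (log2 difference 0.32, SE 0.06, adjusted p = 0.00045 from limma), but under equal medians the difference was 0.01 and after quantile normalization 0.08, and neither was called. At sham L4 the means were 973 ± 30.5 and 1057 ± 51.3 (SD, n = 5), a log2 difference of 0.12 that was not called. Ordered by mean, the 6 groups other than the ipsilateral SNL DRGs ran from 1186 to 948, each overlapping the next, and a gap without overlap separated them from the ipsilateral L5 (564) and L4 (548) groups of SNL rats, which overlapped each other.

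*P2rx2* encodes the subunit that joins P2X3 in slowly desensitizing channels, and it rose where *P2rx3* fell, at the ligated level. In SNL L5 the contralateral signals were 8.07, 16.3, 10.8, 14.04 and 19.1, and the ipsilateral ones 37.3, 41.3, 38.3, 43.4 and 36.7. Every ipsilateral DRG lay above every contralateral one. The ratio of ipsilateral to contralateral means was 2.89 (log2 difference 0.91, SE 0.12, adjusted p = 5.4e-06 from limma). The other 2 probesets of *P2rx2* were also called higher, by 0.82 (SE 0.13) and 0.43 (SE 0.14) on the log2 scale, the second not when rat 9 was left out contralaterally (adjusted p = 0.057 from limma), after quantile normalization (0.084) or under equal medians (0.052).

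No side difference of the brightest *P2rx2* probeset was called elsewhere. In SNL L4 the ipsilateral signals scattered from 1.41 to 41.1 around a contralateral range of 10.1 to 22.7. In sham L5 the means were 18.4 ± 3.85 and 18.2 ± 3.29 (SD, n = 5), a difference that only quantile normalization called (-0.29). There the 2 dimmer probesets were called higher, by 0.21 and 0.24, and both turned negative after quantile normalization, the first was also lost with the rat as a block (adjusted p = 0.064 from limma) and in 8 of 10 fits without 1 array, and the second in 3 of 10. By the brightest probeset, 34 of the 35 arrays outside the ligated ganglion had less *P2rx2* signal than the lowest of its 5 arrays. By the second probeset 34 did too, and by the third 14 did. Most of the 35 belong to the other array-name series, and the share of all genes that lay apart like this was not counted.

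*P2rx6* codes for a subunit that works mostly within heteromers and that is also known from skeletal muscle. In SNL L5 its contralateral signals were 30.6, 46.2, 34.7, 38.4 and 37.2, and the ipsilateral ones 10.8, 13.9, 13.6, 14.6 and 12.9. The ligated side was lower in every rat, with a contralateral mean 2.84 times the ipsilateral one (log2 difference -0.87, SE 0.11, adjusted p = 3.6e-06 from limma). The highest of the 5 ligated DRGs, 14.6, lay below the lowest of the other 35 arrays, 25.9, of which 30 belong to the other array-name series. How many of all genes lay apart in this way was not counted. The muscle markers were lower on the same side in SNL L5, and their part in the *P2rx6* difference was not tested. At SNL L4 the means were 52.1 ± 7.84 and 36.5 ± 7.77 (SD, n = 5), a log2 difference of -0.38 that was not called (adjusted p = 0.0999) but passed after quantile normalization (-0.54), under equal medians (-0.44) and in a fit of all 8 groups. In sham rats neither level was called, but at L5 the difference passed after quantile normalization (-0.23) and under equal medians (-0.33).

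*P2rx5*, another subunit with known expression in muscle, was lower in the ligated ganglion by a narrower margin. Contralateral signals were 27.0, 39.9, 23.6, 19.7 and 35.6, and ipsilateral ones 15.2, 14.9, 12.2, 17.1 and 26.4. The ligated side was the lower one in all 5 rats, yet the groups overlapped through rat 48 (log2 difference -0.44, SE 0.14, adjusted p = 0.018 from limma). Leaving out the contralateral array of rat 8 or of rat 48 ended the call (adjusted p = 0.0506 and 0.0501 from limma). The muscle markers moved with it, and their part was not tested. The second *P2rx5* probeset had signals under 20 on every array and was called once, lower in sham L5 by 0.37.

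In SNL L4 *P2rx5* ran the other way without being called, with means of 34.5 ± 12.3 and 46.3 ± 14.7 (SD, n = 5). The L5 effect was lower than the L4 effect by 0.74 on the log2 scale (SE 0.26, adjusted p = 0.041 from limma). That call was lost in 12 of 20 fits with 1 array left out, in which the adjusted p reached 0.088. In sham L5, where the means were 29.4 ± 7.29 and 25.4 ± 4.25 (SD, n = 5), quantile normalization (-0.33) and equal medians (-0.35) called it lower and the main scaling did not.

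*P2rx4*, the ATP channel of activated microglia and macrophages, showed small rises on the operated side at L5 in both cohorts. In SNL L5 the contralateral signals were 45.1, 43.0, 44.9, 35.1 and 54.4 and the ipsilateral ones 51.1, 51.6, 54.2, 75.1 and 64.5. In sham L5 the contralateral signals were 52.0, 44.0, 46.3, 71.8 and 54.0 and the ipsilateral ones 82.8, 67.8, 75.8, 79.1 and 67.5. The ipsilateral signal was higher in all 5 rats of each cohort. The groups overlapped through 1 contralateral array in each, at 54.4 in SNL and 71.8 in sham rats. Each of these lay above more than 1 ipsilateral signal.

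The log2 difference of *P2rx4* was 0.31 (SE 0.11, adjusted p = 0.027 from limma) in SNL L5 and 0.39 (SE 0.10, adjusted p = 0.0038 from limma) in sham L5. The difference between the cohorts was not called. The SNL L5 call did not outlast the removal of either array of rat 18 (adjusted p = 0.079 and 0.083 from limma), without the ipsilateral array of rat 48 (0.064), after quantile normalization (0.26) and under equal medians (0.32), and the sham L5 call under equal medians (0.22).

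*P2rx7*, the ATP channel tied to interleukin-1β release, was called in sham rats and not in SNL rats. In sham L4 the contralateral signals were 12.9, 10.7, 9.62, 8.44 and 11.1, and the ipsilateral ones 17.7, 25.2, 21.7, 19.1 and 24.6. In sham L5 they were 4.64, 6.93, 10.6, 9.93 and 9.85 contralaterally and 22.4, 22.8, 15.6, 18.4 and 12.2 ipsilaterally. The sides did not overlap at either level. The ratios of means were 2.05 at L4 (log2 difference 0.50, SE 0.11, adjusted p = 0.0028 from limma) and 2.18 at L5 (0.49, SE 0.11, adjusted p = 0.0014), and after quantile normalization neither was called (adjusted p = 0.056 and 0.18).

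In SNL rats the *P2rx7* means were 31.4 ± 9.31 and 38.0 ± 8.83 at L4 and 19.5 ± 5.71 and 22.6 ± 2.87 at L5 (SD, n = 5). Both pairs overlapped, and neither was called. The difference between the cohorts was not called at either level, so the sham calls are not shown to differ from the SNL values. At L5 it was -0.35 (adjusted p = 0.085 from limma) and passed in 3 of 20 fits without 1 array (lowest adjusted p = 0.038).

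**Figure D2:**
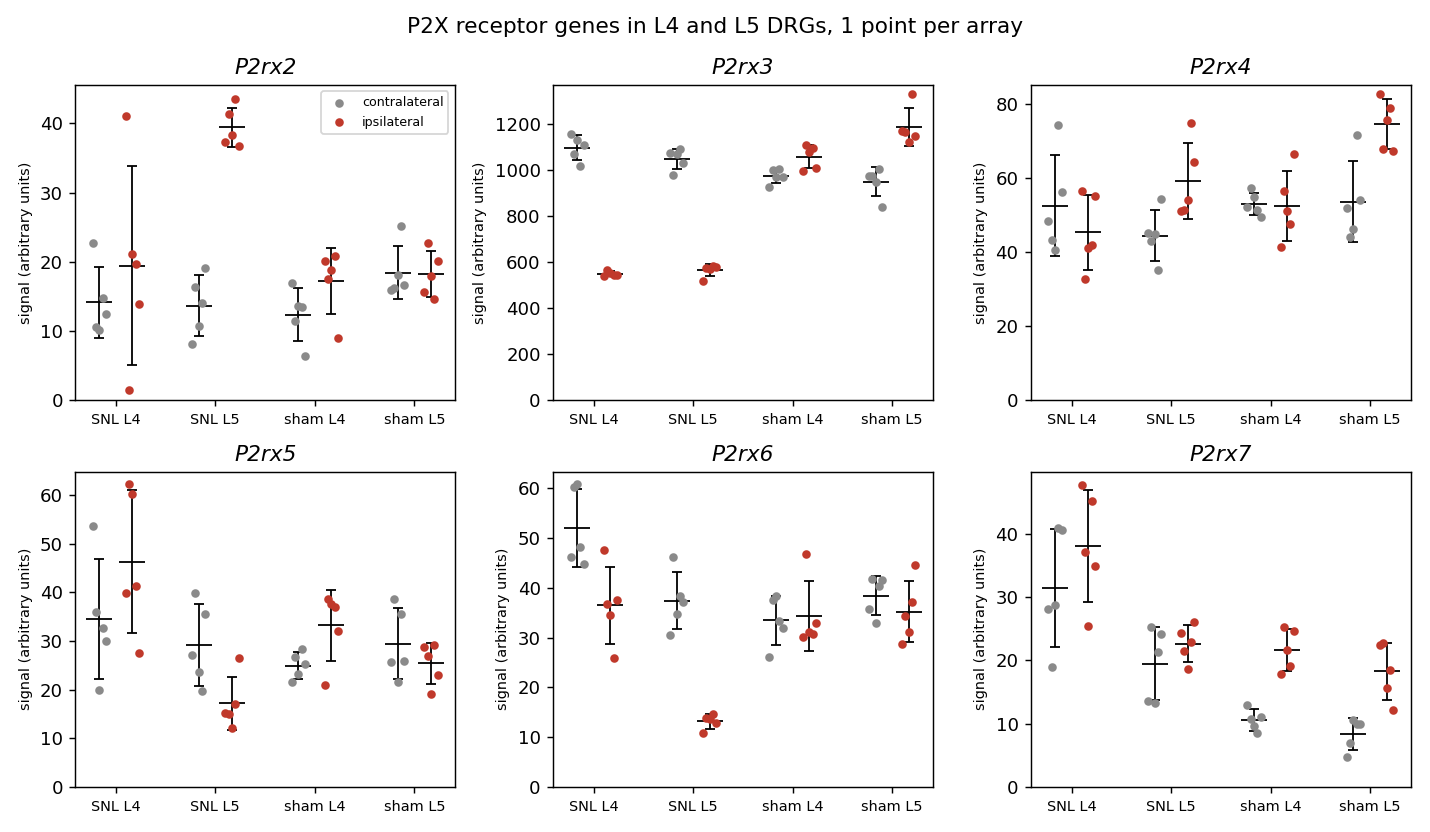
Signal (linear scale, arbitrary units) of the brightest probeset of each P2X gene on every array, by cohort and segment, with grey points for contralateral and red points for ipsilateral DRGs and bars for the mean ± SD of 5 arrays. The red points of *P2rx3* lie between 517 and 581 in both SNL comparisons, those of *P2rx2* lie above and those of *P2rx6* below the grey points of SNL L5.

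Among the P2Y genes, *P2ry1*, the ADP receptor that couples to phospholipase C, was lower at both levels of SNL rats. In SNL L5 the contralateral signals were 56.5, 44.1, 54.2, 47.1 and 42.8, and the ipsilateral ones 24.3, 28.7, 20.5, 11.3 and 24.9. No ipsilateral value reached the contralateral range. The contralateral mean was 2.23 times the ipsilateral one (log2 difference -0.79, SE 0.13, adjusted p = 7.9e-05 from limma).

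At SNL L4 the contralateral signals of *P2ry1* were 41.9, 59.7, 58.1, 70.8 and 50.2 and the ipsilateral ones 42.6, 8.98, 27.0, 37.5 and 33.5. The ipsilateral side was lower in 4 of 5 rats, and the groups overlapped through rat 4 (log2 difference -0.70, SE 0.21, adjusted p = 0.027 from limma). Each of the contralateral arrays of rats 8, 9 and 18 ended the call when left out (adjusted p = 0.062, 0.059 and 0.076 from limma). In sham rats the means were 28.9 ± 11.8 and 36.0 ± 9.25 at L4 and 44.7 ± 8.48 and 48.6 ± 5.00 at L5 (SD, n = 5), with no call.

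*P2ry2*, a receptor for ATP and UTP, was higher on the operated side of sham rats. In sham L4 the contralateral signals were 22.2, 22.1, 27.2, 23.04 and 25.9, and the ipsilateral ones 33.6, 61.2, 32.0, 41.7 and 51.2. In sham L5 they were 22.4, 13.01, 21.8, 19.1 and 17.7 contralaterally and 50.7, 41.6, 28.7, 44.1 and 33.0 ipsilaterally. The sides lay apart at both levels. The ratio of means was 1.82 at L4 (log2 difference 0.56, SE 0.13, adjusted p = 0.0056 from limma) and 2.11 at L5 (0.67, SE 0.11, adjusted p = 0.00023).

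SNL rats had *P2ry2* means of 48.5 ± 3.74 and 46.7 ± 9.77 at L4 and of 40.2 ± 4.68 and 50.4 ± 11.4 at L5 (SD, n = 5). Neither pair was called, although the L5 difference of 0.23 passed without the ipsilateral array of rat 4 (adjusted p = 0.033 from limma). On the contralateral side the cohorts did not overlap. The 10 contralateral sham signals lay between 13.01 and 27.2 and the 10 contralateral SNL signals between 36.4 and 52.2. Contralateral array medians lay apart too. They were 48.4 to 50.5 (L4) and 36.5 to 37.7 (L5) in SNL rats, and 30.7 to 32.7 (L4) and 28.6 to 29.7 (L5) in sham rats. The SNL L5 arrays also belong to another array-name series. The difference between cohorts was not tested, and the share of all genes that lay apart like this was not counted.

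*P2ry12*, an ADP receptor that couples to Gi and is a marker of resting microglia and of platelets, rose in the ligated ganglion. In SNL L5 the contralateral signals were 32.9, 33.7, 32.9, 38.0 and 37.6, and the ipsilateral ones 72.1, 60.3, 73.0, 74.9 and 72.4. The lowest ipsilateral value was well above the highest contralateral one. The ipsilateral mean was 2.01 times the contralateral mean (log2 difference 0.76, SE 0.09, adjusted p = 1.4e-06 from limma). A second, dimmer *P2ry12* probeset had means of 12.4 ± 1.53 and 16.6 ± 2.83 (SD, n = 5), a log2 difference of 0.20 that was not called.

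In sham rats the brightest *P2ry12* probeset was lower on the operated side. In sham L4 the contralateral signals were 58.3, 44.3, 62.3, 56.3 and 50.1, and the ipsilateral ones 24.2, 43.8, 30.1, 52.0 and 27.0. In sham L5 they were 58.9, 57.3, 57.7, 46.4 and 62.5 contralaterally and 40.4, 33.8, 45.9, 36.3 and 52.6 ipsilaterally. The operated side was lower in all 5 rats at both levels, with overlap between the groups. The log2 differences were -0.47 (SE 0.14, adjusted p = 0.021 from limma) at L4, where the call needed rat 17 on the contralateral side (0.0545 without it) and rat 1 on the ipsilateral side (0.0516 without it), and -0.33 (SE 0.09, adjusted p = 0.0091) at L5. At SNL L4 the means were 36.1 ± 4.39 and 38.5 ± 7.08 (SD, n = 5), with no call.

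The second *P2ry12* probeset did not give the sham differences. Its means were 11.8 ± 4.95 and 9.78 ± 5.97 in sham L4 (log2 difference -0.12), 8.58 ± 1.36 and 12.8 ± 5.82 in sham L5 (0.21) and 25.4 ± 6.56 and 37.1 ± 15.7 in SNL L4 (0.32, SD, n = 5). None of these 3 was called, and that of sham L5 passed without the ipsilateral array of rat 23 (adjusted p = 0.047 from limma), with the higher side ipsilateral. The calls of *P2ry12* therefore rest on 1 of its 2 probesets.

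*P2ry14*, the receptor for UDP-glucose, had calls in the same directions as the brightest *P2ry12* probeset at L5. In SNL L5 the contralateral signals were 12.6, 0.411, 12.2, 12.6 and 2.56 and the ipsilateral ones 24.9, 26.3, 24.9, 24.6 and 38.8, and in sham L5 they were 16.5, 13.1, 17.97, 13.7 and 15.1 against 7.92, 10.9, 8.93, 10.9 and 9.69. The ligated side was above and the sham-operated side below its contralateral range. The log2 difference was 0.90 (SE 0.16, adjusted p = 0.00023 from limma) in SNL L5 and -0.28 (SE 0.08, adjusted p = 0.0066) in sham L5, where a fit of all 8 groups did not call it (adjusted p = 0.29). At L4 the signals ran from 1.02 to 31.7 in SNL rats and from 4.42 to 17.2 in sham rats, with no call.

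**Figure D3:**
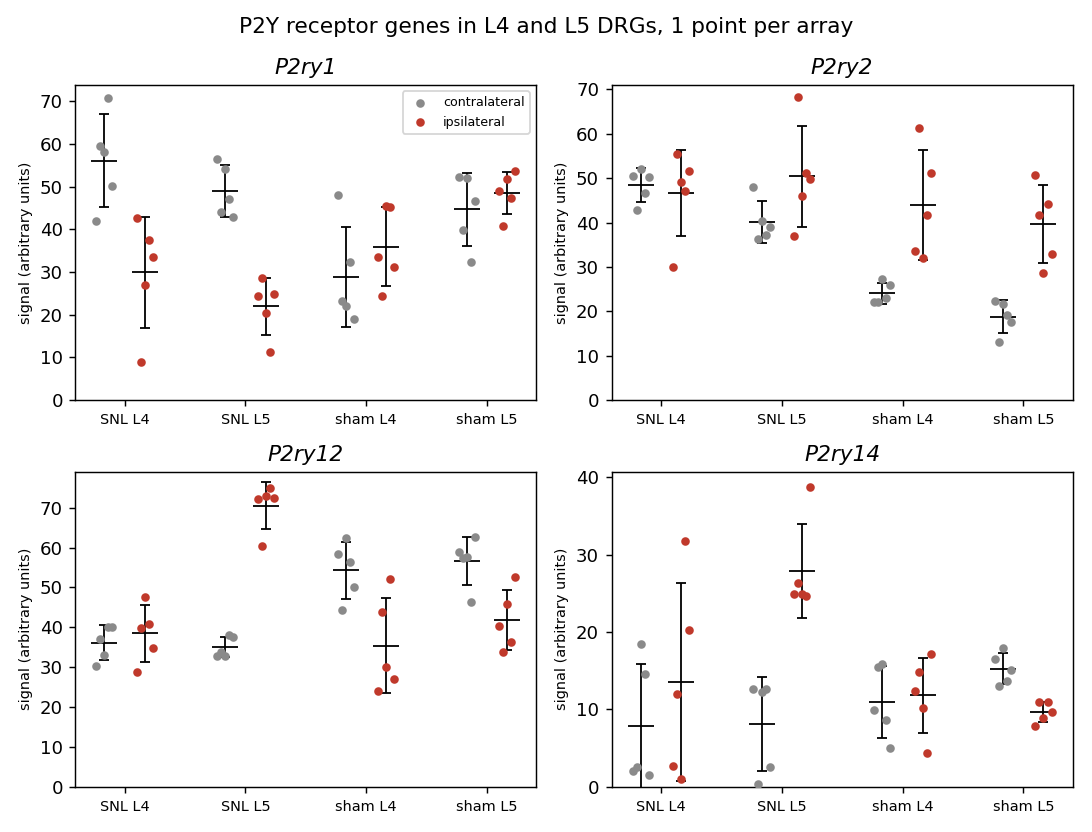
Signal (linear scale, arbitrary units) of the brightest probeset of each P2Y gene on every array, by cohort and segment, with grey points for contralateral and red points for ipsilateral DRGs and bars for the mean ± SD of 5 arrays. The red points of *P2ry12* (60.3 to 74.9) and *P2ry14* (24.6 to 38.8) lie above the grey points of SNL L5 and those of *P2ry1* below them.

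The side differences of the cohorts were tested against each other in 1 fit per segment. At L5, 3 receptor genes had a higher difference in SNL than in sham rats (32.1% of all genes) and 4 a lower one (18.3% of all genes). The higher ones were *P2ry14* by 1.18 (SE 0.19), *P2ry12* by 1.09 (SE 0.12) and *P2rx2* by 0.92 (SE 0.15), with adjusted p values of 1.1e-05, 6.1e-08 and 1.2e-05 from limma. The lower ones were *P2rx3* by -1.19 (SE 0.08), *P2ry1* by -0.89 (SE 0.17), *P2rx6* by -0.77 (SE 0.13) and *P2ry2* by -0.44 (SE 0.17). For *P2ry2* the adjusted p was 0.035 from limma, and the call was lost with the rat as a block (0.057), after quantile normalization (0.15), with an offset of 64 (0.092), in the fit of all 8 groups (0.0506) and in 8 of 20 fits without 1 array.

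Of the dimmer probesets at L5, that of *P2rx3* was lower in SNL by 0.57 (SE 0.13, adjusted p = 0.00055 from limma), and those of *P2rx2* were higher by 0.61 (SE 0.15, adjusted p = 0.0015) and by 0.19 (SE 0.17, not called). The second *P2rx5* probeset was higher by 0.35 (SE 0.10, adjusted p = 0.0055). The fit of all 8 groups called neither the 0.61 of *P2rx2* (0.053) nor the 0.35 of *P2rx5* (0.14). The second *P2ry12* probeset differed by -0.01 (SE 0.16), with no call.

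At L4, 3 genes had a lower difference in SNL than in sham rats, where 7.73% of all genes did, and 0 had a higher one, where 8.93% did. At an unadjusted p under 0.05, 1 gene was higher, *P2ry12*. The lower ones were *P2rx3* by -1.10 (SE 0.07, adjusted p = 1.1e-11 from limma), *P2ry1* by -0.93 (SE 0.28, adjusted p = 0.026) and *P2ry2* by -0.61 (SE 0.19, adjusted p = 0.034). The *P2ry2* call was lost with the rat as a block (0.057), after quantile normalization (0.072) and in 9 of 20 fits without 1 array, and that of *P2ry1* in 5 of 20. For the second *P2rx3* probeset the difference at L4 was 0.08 (SE 0.17), with no call.

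Within SNL rats, the L5 and L4 side differences were told apart for 2 of the 10 genes. *P2ry12*, by its brightest probeset alone, was higher by 0.70 (SE 0.16, adjusted p = 0.0019 from limma) at L5, where 15.1% of all genes were higher, and *P2rx5* was lower, as given above, where 10.3% were. These contrasts span both array-name series, each side difference lying within 1 of them.

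Markers of cell types were read beside the receptors. Of all genes, 35.4% were called higher and 19.02% lower in SNL L5, and 10.97% and 10.02% in SNL L4. At sham L4 these shares were 12.8% and 13.7%, and at sham L5 21.4% and 28.2%. Of 9 measured nociceptor genes, 8 were called lower in SNL L5, and their summed signal was 2697 to 2931 ipsilaterally against 7678 to 8669 contralaterally. In SNL L4 the nociceptor sum did not separate the sides (7494 to 8781 against 7572 to 8131), with 1 gene higher and 4 lower, and the brightest *P2rx3* probeset was lower there and the second was not. Fewer cells of a type and less RNA per cell cannot be told apart in whole ganglia.

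Of 12 macrophage and microglia genes, 9 were higher and 0 lower in SNL L5, with a summed signal of 2844 to 3173 against 1050 to 1167. *P2ry14* and the brightest probeset of *P2ry12* rose beside them, and the second *P2ry12* probeset was not called. Also higher in SNL L5 were 9 of 9 genes of injured sensory neurons and 6 of 6 of fibroblasts. So were 6 of 6 genes of myelinating Schwann cells and 4 of 7 of endothelium and pericytes, with 1 lower. Of 7 genes of blood cells and platelets, 1 was higher and 4 were lower. *Cd68* rose from 23.2 to 132 and *Csf1r* from 36.7 to 142 in mean signal, while the defining microglia and macrophage genes *Itgam* and *Cx3cr1* had mean signals under 10 in all 8 groups. In sham L4, where the brightest *P2ry12* probeset alone was called lower, 3 of the 12 were lower and 0 higher (868 to 1110 against 1108 to 1266). In sham L5 5 were lower and 2 higher (1208 to 1400 against 1325 to 1504). Of 7 satellite glia genes, 2 were higher and 2 lower in SNL L5, with overlapping sums. Of 12 neuronal genes, 3 were higher and 8 lower in SNL L5, and 5 were higher and 4 lower in SNL L4. In sham rats, where *P2rx7* and *P2ry2* were called higher, 9 of the 12 neuronal genes were higher and 1 lower at L4. At sham L5, 10 of them were higher and 1 lower. The sham calls of *P2rx7* were lost after quantile normalization. *P2rx7* was not called in SNL L5, where 9 of the 12 macrophage and microglia genes were higher. Of 7 satellite glia genes, 3 were higher and 0 lower at sham L4, and 5 were higher and 1 lower at sham L5. Of 9 genes of injured sensory neurons, 4 were higher at sham L4 and 8 at sham L5, with 0 lower at both. The part of any of these cell types in the receptor values was not tested.

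**Figure D4:**
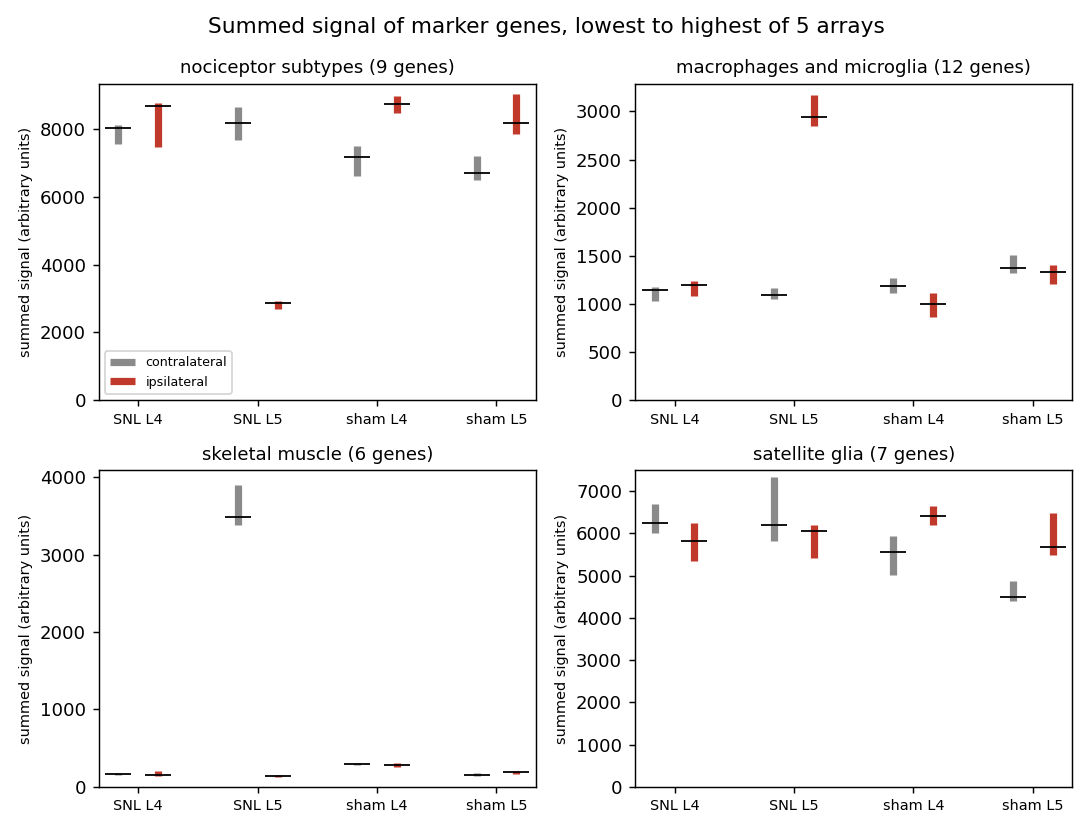
Summed signal (linear scale, arbitrary units) of 4 marker lists by group, with bars from the lowest to the highest of 5 arrays and a line at the median, in grey for contralateral and red for ipsilateral DRGs. In SNL L5 the nociceptor sum is lower and the macrophage and microglia sum higher on the ligated side, and the skeletal muscle sum is high (3384 to 3899) in contralateral L5 DRGs of SNL rats.

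Other genes of nucleotide signalling were read from 5 further lists. Their counts stand against the 35.4% of all genes called higher and the 19.02% called lower in SNL L5, with a median of 0.13. In the other comparisons these shares were 10.97% and 10.02% (SNL L4), 12.8% and 13.7% (sham L4), and 21.4% and 28.2% (sham L5). Of the 4 other P2 receptors measured (*P2rx1*, *P2ry4*, *P2ry6* and *P2ry10*), 1 was higher in SNL L5: *P2ry6*, the UDP receptor of phagocytes, rose from 17.03 ± 7.28 to 69.9 ± 17.4 (SD, n = 5), a log2 difference of 1.38 (SE 0.17, adjusted p = 4.3e-06 from limma). *P2rx1*, a channel of platelets and smooth muscle, was higher in sham L4 by 0.41 and in sham L5 by 0.32, both lost after quantile normalization and under equal medians. In SNL L4, 0 of the 4 were called by limma. The median log2 difference of the 4 was 0.17 in SNL L5.

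Of 4 adenosine receptors 3 were measured, with a median of -0.31 in SNL L5, and they respond to the end product of ATP breakdown. Here *Adora2b* fell in SNL L5 from 37.0 ± 6.91 to 18.9 ± 3.35 (SD, n = 5), and *Adora2a* was lower in SNL L4 (19.4 ± 6.66 to 5.55 ± 5.01) and, by 0.28 on the log2 scale, in sham L5. The sham L5 call of *Adora2a* was lost with an offset of 1 (adjusted p = 0.0501 from limma) and in the fit of all 8 groups (0.15).

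Of the ectonucleotidases and adenosine enzymes, 5 of 13 (38.5%) were higher and 5 (38.5%) lower in SNL L5, with a median of 0.09, and the genes named from SNL L5 had adjusted p values from 1.6e-12 to 3.3e-09 in limma. *Entpd2*, a glial ecto-ATPase, rose from 117 ± 5.76 to 358 ± 24.0 (SD, n = 5), with a log2 difference of 1.49 (SE 0.06), and *Enpp3* from 43.3 ± 3.35 to 118 ± 10.3. *Acp3*, the AMP-cleaving phosphatase of nociceptors, fell from 175 ± 17.1 to 48.4 ± 8.00 (SD, n = 5), with a log2 difference of -1.57 (SE 0.09), and *Entpd3*, the neuronal ecto-ATPase, from 101 ± 7.99 to 28.7 ± 5.71.

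At SNL L4, 2 of the 13 (15.4%) were higher and 3 (23.1%) lower, against 10.97% and 10.02% of all genes. *Entpd2* again rose (89.4 ± 6.90 to 155 ± 10.5) and *Entpd3* again fell (130 ± 10.7 to 98.7 ± 8.30, SD, n = 5), with *Alpl* higher by 0.55 and *Entpd5* lower by 0.80. *Entpd3* was also lower on the operated side of sham rats, by 0.39 at L4 and 0.30 at L5 on the log2 scale. Of the 13, 0 were higher and 4 (30.8%) lower at sham L4, against 12.8% and 13.7% of all genes. At sham L5, 4 (30.8%) were higher and 3 (23.1%) lower, against 21.4% and 28.2% of all genes.

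Among 5 genes of ATP release and nucleoside transport, 1 was higher and 1 lower in SNL L5, with a median of -0.08. Here *Panx1*, which forms ATP-permeable channels, rose from 73.5 ± 5.03 to 170 ± 27.7 (SD, n = 5), with a log2 difference of 1.05 (SE 0.09). It was also higher in sham L4, by 0.34, a call lost under equal medians (adjusted p = 0.32 from limma) and with no intensity trend (0.0514). *Gja1*, the connexin of satellite glia, fell in SNL L4 by 0.44 and in SNL L5 by 0.19, the latter not with the rat as a block (adjusted p = 0.054 from limma), and was higher in sham L4 by 0.16 and in sham L5 by 0.31, which equal medians turned to -0.066 and -0.00056.

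Of 8 genes that act after P2X7 and P2X4, 5 (62.5%) were higher and 0 lower in SNL L5, where 35.4% of all genes were higher and 19.02% lower, and 0 were called in SNL L4 by limma. The median log2 difference of the 8 was 0.43 in SNL L5. The largest called differences were those of *Il1b*, *Pycard* and *Il18*. In SNL L5 *Il1b* rose from 9.71 ± 2.80 to 29.4 ± 7.68, *Pycard* from 41.2 ± 9.90 to 82.7 ± 13.5 and *Il18* from 26.8 ± 4.96 to 56.4 ± 9.51 (SD, n = 5), while *P2rx7* was not called there. *Casp1* followed with 17.6 ± 6.32 and 29.3 ± 6.48 (SD, n = 5), a call lost after quantile normalization (adjusted p = 0.13 from limma) and under equal medians (0.086). In sham L4 only *Prkce* of the 8 was called, higher by 0.33, and in sham L5 *Prkce*, *Pycard* and *Bdnf* were higher by 0.24, 0.21 and 0.17 and *Mapk14* lower by 0.36, of which the first 3 turned negative under equal medians. With the rat as a block *Pycard* (adjusted p = 0.072 from limma) and *Bdnf* (0.08) were not called at sham L5. The *Prkce* call at sham L4 was lost under equal medians (adjusted p = 0.33 from limma), and the *Mapk14* call at sham L5 after quantile normalization (0.051).

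The genes whose 8 group means lay closest to those of *P2rx3*, each centred on its own mean, were *Kctd9*, *Cpeb1*, *Bnip3*, *Prdx5* and *Clstn1*, with root mean square differences of 0.12 to 0.14 on the log2 scale over the 8 groups. *Kctd9* had log2 side differences of -0.75 in SNL L4 and -0.73 in SNL L5, and *Cpeb1* of -0.84 and -0.87. For *P2rx4* the closest were *Castor1*, *Ccdc107*, *Spon1*, *Rnf115* and *Map6*, at 0.11 to 0.12. The group means of *P2rx4* themselves varied with a root mean square of 0.17 around their mean and those of *P2rx3* with 0.40.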

How the data were processed

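RNA was measured on 40 arrays, each from 1 DRG per the labels. The deposited values are linear signal intensities, made by the authors with the MAS5 algorithm, with a trimmed mean of 100.0 on each array. MAS5 weighs mismatch probes, so that dim signals are noisy, and precision is set by how many arrays a group has. The 57 control probesets were left out, and 31042 were tested. Of these 20826 carried 1 gene symbol in the platform annotation, 436 several and 9780 none. Tests used limma 3.58.1 in R 4.3.3 (lmFit and eBayes with an intensity trend) on log2(signal + 16), two-sided, within the groups compared, with Benjamini-Hochberg adjustment over all probesets. Shares of all genes use the brightest probeset of each of 14217 genes. The procedure was tested on simulated data.

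The 4 DRGs of a rat share its number in the labels. Same-rat deviations from the group means correlated between -0.14 and 0.10 (Pearson's r across probesets), and all 5 contralateral L5 arrays of SNL rats carried muscle RNA at a similar level, so the number of replicates and the p-values rest on the labels' word that the arrays are separate DRGs. For the mRNA arrays the authors' methods name a t-test without saying whether it was paired (for the miRNA measurements it was), so the main fit had no rat block, and the block was an alternative.

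The members and gene lists were chosen with earlier results of these data known. Named from the lists were up to 4 called genes per list and comparison with the largest change, and for *P2rx3* and *P2rx4* the 5 genes with the smallest root mean square difference of centred group means. Alternatives were offsets of 1 and 64, quantile normalization, equal medians, leaving out dim probesets, the rat block, a fit with no intensity trend, 1 fit of all 8 groups, a threshold of 0.01, the methods' t-test at p under 0.001 and after adjustment, and leaving out each array.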

Additional observations from a re-analysis of the deposited data

Results flagged for a closer look

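Among 120 sets of 5 arrays (15 probesets in 8 groups), 11 held an array that stood apart from the other 4 by Dixon's test, where chance gives about 6. For the brightest probesets these were *P2rx2* at 8.96 in rat 23 (sham L4, ipsilateral) and 25.1 in rat 22 (sham L5, contralateral), *P2rx3* at 517 in rat 4 (SNL L5, ipsilateral) and 1329 in rat 22 (sham L5, ipsilateral), *P2rx6* at 46.9 in rat 14 (sham L4, ipsilateral), *P2ry12* at 60.3 in rat 8 and *P2ry14* at 38.8 in rat 48 (both SNL L5, ipsilateral). Among the dimmer probesets they were *P2rx2* at 21.0 and 13.7 in rat 17 (sham L4 and sham L5, ipsilateral) and *P2rx5* at 19.4 in rat 4 and 18.1 in rat 9 (SNL L4, contralateral and ipsilateral).

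Side differences that differed between cohorts or segments, by a test of the difference in limma, were 12 for the brightest probesets and 4 for the dimmer ones. At L5 the SNL effect minus the sham effect was 0.92 for *P2rx2*, -1.19 for *P2rx3*, -0.77 for *P2rx6*, -0.89 for *P2ry1*, -0.44 for *P2ry2*, 1.09 for *P2ry12* and 1.18 for *P2ry14* on the log2 scale. At L4 it was -1.10 for *P2rx3*, -0.93 for *P2ry1* and -0.61 for *P2ry2*. The L5 effect minus the L4 effect in SNL rats was -0.74 for *P2rx5* and 0.70 for *P2ry12*. Among the dimmer probesets SNL minus sham at L5 was 0.61 for *P2rx2*, -0.57 for *P2rx3* and 0.35 for *P2rx5*, and L5 minus L4 in SNL rats was -0.54 for *P2rx3*.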

How the results depend on the processing

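Signals of all members but *P2rx3* were at most 82.8, and a filter on dim probesets left 1 to 5 of the 10 in a comparison. Receptor genes called were then 1 in SNL L4, 3 in SNL L5, and in sham rats 1 at L4 and 3 at L5, 1 and 3 for SNL minus sham at L4 and L5, and 0 of 3 (limma, with 1 at an unadjusted p under 0.05) for L5 minus L4 in SNL. At an adjusted p under 0.01 there was 1 each in SNL L4, SNL minus sham at L4 and L5 minus L4. The methods' t-test at p under 0.001 gave 1 and 5 in SNL L4 and L5 and 1 and 3 in sham L4 and L5, and after adjustment 1 in SNL L4. For L5 minus L4, equal medians gave 4 and the fit of all 8 groups 5. Without 1 array the counts ran from 1 to 2 in SNL L4, 7 to 9 in SNL L5, and in sham rats 2 to 3 at L4 and 6 to 6 at L5, 2 to 3 and 6 to 8 for SNL minus sham at L4 and L5, and 1 to 3 for L5 minus L4.

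Of all genes, 1809 were called in SNL L4 and 2006 in sham L4 at 0.01, 5116 in SNL L4 in the fit of all 8 groups, 6292 in sham L4 under equal medians (14.2% of them higher, against 48.4% as reported), and 1304, 4298, 1266 and 2811 in the 4 comparisons by the t-test at p under 0.001. Equal medians also took the share of higher calls from 52.3% to 25.2% in SNL L4, from 65.1% to 43.0% in SNL L5 and from 43.1% to 16.1% in sham L5, and quantile normalization that of sham L5 to 28.9%. For SNL minus sham at L4 the share went from 53.6% to 71.8% under equal medians. Without 1 array the counts were 2487 to 2891, 7231 to 7572, 2830 to 3798 and 6294 to 7064. With the rat as a replicate block, the receptor calls changed only for *P2ry2* in SNL minus sham (adjusted p = 0.057 at L4 and at L5), and for the dimmer *P2rx2* probeset in sham L5 (0.064).

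Uncalled differences that changed sign after quantile normalization were *P2rx3* (-0.00084), *P2rx6* (-0.13) and *P2ry14* (-0.17) in sham L4, *P2ry1* in sham L5 (-0.0067), *P2rx7* in SNL L5 (-0.024), *P2ry12* in SNL L4 (-0.042) and the second *P2rx3* probeset in SNL L4 (-0.015) and SNL minus sham at L4 (-0.0086), and the second *P2ry12* probeset in sham L5 (-0.10) and SNL minus sham at L5 (0.15). Under equal medians they were -0.11, -0.14 and -0.058 in sham L4, *P2ry1* -0.14 in sham L5, *P2ry12* -0.033 and the second *P2rx3* probeset -0.030 in SNL L4. Called values that reversed were the dimmer *P2rx2* probesets in sham L5 after quantile normalization (-0.10 and -0.019) and, under equal medians, *Gja1* in sham L4 (-0.066) and sham L5 (-0.00056) and *Prkce* (-0.016), *Pycard* (-0.0076) and *Bdnf* (-0.12) in sham L5. Without 1 array, signs changed in uncalled differences of *P2rx2* in SNL L4 (-0.048 to 0.38) and sham L5 (-0.053 to 0.059), *P2rx4* (-0.087 to 0.043), *P2rx6* (-0.061 to 0.057) and *P2ry14* (-0.045 to 0.15) in sham L4, and *P2ry2* (-0.11 to 0.052) and *P2ry12* (-0.00064 to 0.13) in SNL L4, and for SNL minus sham in the second probesets of *P2rx3* at L4 (-0.0023 to 0.15) and of *P2ry12* at L5 (-0.092 to 0.066). The cause was not tested.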
